A study of Mus musculus with 8 samples.

Results

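Car1, Car2, Saa1, 1810065E05Rik, 2610528A11Rik, Mal, Fa2h, Muc4 and Aqp8 are genes whose products are abundant at the surface or in the crypts of the mouse large bowel, listed here under that heading. They are described in small intestine of mice given a glucocorticoid, a gamma-secretase inhibitor, or both. The set is a hand-made list of 9 genes out of 12393 named on the array, and all their probe sets, 11 in number, are reported. The genes were chosen by their high signals in 1 of the 2 dexamethasone arrays, so levels in the dexamethasone group are given as a description and carry no test.

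The mice were 6-week-old C57/Black6 females that were injected into the abdomen once a day for 5 days. One group received only the solvent dimethyl sulfoxide (vehicle), one dexamethasone at 15 mg/kg, one DBZ at 10 umol/kg, and one dexamethasone and DBZ at those doses (the combination). Dexamethasone is a synthetic glucocorticoid, and DBZ inhibits gamma-secretase, the protease that releases the active part of Notch receptors. Unprocessed small intestine was frozen, and labelled RNA was read on Affymetrix arrays of 22690 probe sets. The labels name 2 samples per group, but both DBZ columns were equal in 22684 probe sets and differed in 6, where one column read 0, so they were counted as 1 array and 7 arrays remained.

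The large bowel reabsorbs water, sodium and short-chain fatty acids, exchanges chloride for bicarbonate, and keeps dense populations of bacteria behind a layer of mucus. Its surface cells carry cytosolic carbonic anhydrases, which supply bicarbonate and protons for this exchange, together with the water channel Aqp8. Many of these genes are also used along the small intestine at lower levels, and their levels change from the duodenum to the rectum. Glucocorticoids act on the gut through the glucocorticoid receptor, while blocking Notch is known to shift intestinal progenitors towards secretory cells.

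The promoters of 4 genes are shown, because 3 of them belong to the genes with the widest gaps between arrays. That of Saa2 is added because it is nearly the same in sequence as the promoter of its neighbour Saa1. The transcripts that the probe sets measure were not compared. They are RefSeq sequences of the build GRCm38.p6, from 250 bases before to 50 bases after the annotated start, read 5′ to 3′ on the gene's strand. Capitals mark matches, on either strand, to TATAAA, the TATA box, or to TTTATG, the pattern bound by the caudal-type homeodomain factors of the gut.
1810065E05Rik, chr11:58420861-58421160, plus strand: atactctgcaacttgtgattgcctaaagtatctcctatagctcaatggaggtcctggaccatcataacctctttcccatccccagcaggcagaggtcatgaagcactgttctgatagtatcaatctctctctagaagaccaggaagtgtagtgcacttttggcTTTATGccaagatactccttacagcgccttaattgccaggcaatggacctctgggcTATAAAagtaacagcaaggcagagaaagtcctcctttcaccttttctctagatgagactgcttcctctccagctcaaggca
2610528A11Rik, chr14:37110052-37110351, minus strand: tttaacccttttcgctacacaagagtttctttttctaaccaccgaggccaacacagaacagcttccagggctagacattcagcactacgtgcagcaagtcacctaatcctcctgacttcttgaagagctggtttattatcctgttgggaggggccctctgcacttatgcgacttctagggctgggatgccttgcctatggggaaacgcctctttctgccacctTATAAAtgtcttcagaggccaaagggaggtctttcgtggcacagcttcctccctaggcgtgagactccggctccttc
Saa1, chr7:46742931-46743230, minus strand: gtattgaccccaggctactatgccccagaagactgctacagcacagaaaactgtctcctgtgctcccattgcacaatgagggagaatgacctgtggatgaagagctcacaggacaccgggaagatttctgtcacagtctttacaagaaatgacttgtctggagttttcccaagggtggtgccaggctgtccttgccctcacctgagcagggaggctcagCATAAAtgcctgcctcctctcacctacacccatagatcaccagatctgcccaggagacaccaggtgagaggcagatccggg
Saa2, chr7:46751583-46751882, plus strand: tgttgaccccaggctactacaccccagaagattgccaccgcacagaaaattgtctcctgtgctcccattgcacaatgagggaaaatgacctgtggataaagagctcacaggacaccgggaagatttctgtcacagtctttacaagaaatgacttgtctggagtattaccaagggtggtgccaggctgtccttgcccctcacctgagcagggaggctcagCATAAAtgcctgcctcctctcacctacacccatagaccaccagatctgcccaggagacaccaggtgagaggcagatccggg

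A promoter was found for 6 of the 9 genes in the table used here, namely Saa1, 1810065E05Rik, 2610528A11Rik, Mal, Muc4 and Aqp8. TATAAA was present in 3 of those 6 promoters, 31, 27 and 36 bases before the start in 1810065E05Rik, 2610528A11Rik and Muc4, and in 13.6% of all 32851 promoters. TTTATG, or CATAAA on the other strand, was present in 2 of the 6, at 87 bases before the start in 1810065E05Rik and at 31 in Saa1, and in 11.8% of all promoters. ACANNNTGT, the core spacing of a glucocorticoid receptor element, was present in 0 of the 6 and in 6.85% of all promoters. In none of the printed promoters did matches to different motifs overlap. The motifs were chosen after the values were seen, and a match is only a run of letters in this window. The Saa1 and Saa2 promoters were identical in 287 of 301 aligned positions, or 95.3%, with 12 mismatches and 2 gaps.

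All arrays held small intestinal tissue by their markers, and 1 of them stood apart. The fatty acid binding protein Fabp1 had a signal between 7334 and 15668 in every array, and lactase, Lct, between 5147 and 8244. Of the probe sets above a low-signal filter, 105 of 13637 (0.77%) were at least 2-fold above every other array in the dexamethasone array labelled replicate 1, called dexamethasone 1 below. The same count was 11 and 12 in the vehicle arrays, 1 in dexamethasone 2, 9 in the DBZ array, and 3 and 0 in the combination arrays. RNA quality ratios did not set dexamethasone 1 apart. Its 3′ to 5′ signal ratio was 1.18 for Gapdh and 1.40 for Actb. The ranges over the 7 arrays were 0.905 to 1.80 and 1.22 to 2.17. The 18S ribosomal RNA signal set the vehicle arrays apart, at 134 and 142 against 30.1 to 65.2 in the others. The vehicle arrays were also deposited at a trimmed mean of 500, against 250 in the others. In comparisons with vehicle, such differences between arrays cannot be told apart from treatment.

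**Figure D1:**
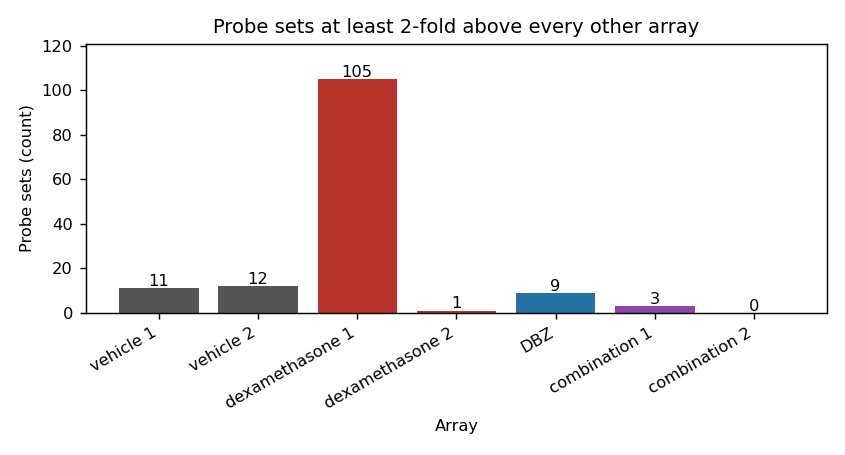
Number of probe sets (y axis) whose signal in the array named on the x axis was at least 2-fold above that in each of the other 6 arrays, on the log2 scale with the added constant. Dexamethasone 1 has 105 such probe sets, and no other array has more than 12.

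Signals below are intensities after each array was brought to a trimmed mean of 250, and they can be compared between arrays for 1 probe set but not between probe sets. The gap of an array is its log2(signal + 12.46) minus that of the next highest array. With no detection calls in the deposited table, signals below about 39.1, the low-signal filter, have no certain order.

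The carbonic anhydrases came first. Car1, the cytosolic carbonic anhydrase of colonic surface cells and red blood cells, read 1.78 and 4.11 with vehicle, 7460 in dexamethasone 1, 40.2 in dexamethasone 2, 52.9 in the DBZ array, and 14.5 and 1.45 in the combination arrays. It was thus high in a single array and low elsewhere, with a gap of 6.84, which ranked first among all probe sets whose highest array was dexamethasone 1. Car2, the high-activity cytosolic carbonic anhydrase of many epithelia, had signals of 577 and 657 with vehicle, 2138 in dexamethasone 1, 55.3 in dexamethasone 2, 148 in the DBZ array, and 117 and 80.1 in the combination arrays. Car2 was therefore well measured in every array: both dexamethasone arrays lay outside the vehicle range, one above it and one below it, and the DBZ and combination arrays all lay below it. Car1 and Car2 lie on the same chromosome with one protein-coding gene, Car3, between them.

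Car3, the carbonic anhydrase of muscle and fat, had its highest signal in dexamethasone 1 too, at 2332, against 1224 in dexamethasone 2 and between 227 and 1081 in the others. Car8, a family member without catalytic activity, read 437 in dexamethasone 1 and between 59.0 and 191 in the others. Car9 lay between 256 and 454 in all arrays, and Car13 was highest in dexamethasone 2, at 741, against 544 in dexamethasone 1. Car12 is described with the other colon genes below.

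Saa1 encodes serum amyloid A, an acute-phase protein made by liver and by gut epithelium in contact with bacteria. Its probe set 1450788_at had signals of 3.10 and 1.47 with vehicle, 1660 in dexamethasone 1, 12.2 in dexamethasone 2, 20.7 in the DBZ array, and 2.39 and 2.33 in the combination arrays. Its probe set 1419075_s_at gave 11.8 and 4.66 with vehicle, 1350 in dexamethasone 1, 43.8 in dexamethasone 2, 40.2 in the DBZ array, and 1.58 and 2.99 in the combination arrays. Both were high in dexamethasone 1 alone, with gaps of 5.66 and 4.60. The transcript assigned to the second probe set is placed under Saa2 in RefSeq, so the product measured by each cannot be assigned with certainty.

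The relatives of Saa1 shared the same top array in part. The probe set named for Saa2 had 109 in dexamethasone 1 and between 5.26 and 24.7 in the others. Saa3, the form made by macrophages and gut epithelium, had 936 in dexamethasone 1, 207 in dexamethasone 2, 53.2 and 39.2 with vehicle, 60.8 with DBZ, and 126 and 155 in the combination arrays. Saa4 lay between 2.51 and 28.0, under the filter, and was highest in vehicle 1. Over all 31 relatives of the 9 genes that had a probe set, 20 passed the filter and 9 of these were highest in dexamethasone 1, against 19.0% of the 8093 genes above the filter. At least a 2-fold margin over every other array was reached by 4 of them, Car8, Car12, Saa3 and Aqp4, against 0.865%. Car12, Saa3 and Aqp4 are also counted, with the same probe sets, in the colon list below. The counts of the 2 lists are therefore not separate observations.

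2610528A11Rik, which the gene table also lists as Gpr15l, encodes a secreted ligand of the T-cell homing receptor Gpr15. Its signals were 29.4 and 25.4 with vehicle, 2228 in dexamethasone 1, 57.7 in dexamethasone 2, 60.8 in the DBZ array, and 27.9 and 46.3 in the combination arrays. 1810065E05Rik, a protein-coding gene given here without a role, had signals of 64.2 and 37.7 with vehicle, 4314 in dexamethasone 1, 93.3 in dexamethasone 2, 75.6 in the DBZ array, and 35.9 and 40.3 in the combination arrays. Both genes were high in 1 array only, with gaps of 4.93 and 5.35. Even at these lower levels, the dexamethasone 2 and DBZ arrays read above both vehicle arrays for both genes.

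Mal and Fa2h act in membranes: Mal is a proteolipid of lipid rafts that carries proteins to the apical surface, and Fa2h hydroxylates the fatty acids of sphingolipids. The Mal probe set 1417275_at had signals of 2.47 and 8.16 with vehicle, 296 in dexamethasone 1, 1.46 in dexamethasone 2, 3.39 in the DBZ array, and 8.64 and 12.1 in the combination arrays. The second Mal probe set, 1432558_a_at, had 46.7 and 3.03 with vehicle, 164 in dexamethasone 1, 5.58 in dexamethasone 2, 3.07 in the DBZ array, and 13.3 and 20.5 in the combination arrays. The probe sets pointed to the same array, with gaps of 3.65 and 1.58, although the second missed the filter. Fa2h had 38.0 and 10.2 with vehicle, 579 in dexamethasone 1, 22.2 in dexamethasone 2, 18.7 in the DBZ array, and 11.8 and 15.0 in the combination arrays, a gap of 3.55. Mal and Fa2h are also genes of myelin. Over the 8 myelin and glia markers with a probe set the summed signal was 7927 in dexamethasone 1 against 9062 in dexamethasone 2, 10137 with DBZ, 8849 and 12811 with the combination, and 4480 and 4210 with vehicle. Pmp22 made up most of each sum, at 7166 in dexamethasone 1 and 8436 in dexamethasone 2, so the sums mainly follow that gene. Of the 8 markers, 4 passed the filter, and of these 1 was higher in dexamethasone 1 than in dexamethasone 2 and 3 were lower. Of the 4, the myelin protein gene Mbp alone was highest in dexamethasone 1, at 307 against 178 to 251. Under the filter, Ugt8a, an enzyme of myelin lipid synthesis, read 73.9 there and between 1.39 and 41.2 elsewhere, and S100b 35.0 against 14.3 to 29.2. Mog stayed between 0.904 and 2.99 and Mag between 2.24 and 25.2 in all arrays. The part of glia in the levels of Mal and Fa2h was not tested.

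Muc4 and Aqp8 differed from the rest. Muc4, a membrane-bound mucin, had signals of 40.7 and 35.9 with vehicle, 89.0 in dexamethasone 1, 12.3 in dexamethasone 2, 1.75 in the DBZ array, and 1.32 and 22.6 in the combination arrays. It was highest in dexamethasone 1 with 2.19 times the next signal, a gap of 0.93 with the added constant and of 1.06 with a smaller one, the 10th percentile. Whether it counts as 2-fold therefore depends on the constant, and its mean missed the filter. Aqp8, the water channel of colonic surface cells, had 112 and 41.9 with vehicle, 56.4 in dexamethasone 1, 18.6 in dexamethasone 2, 16.7 in the DBZ array, and 12.6 and 33.5 in the combination arrays. Aqp8 was highest in vehicle 1, and dexamethasone 1 lay between the vehicle arrays, so the name under which it was listed is not borne out for it.

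**Figure D2:**
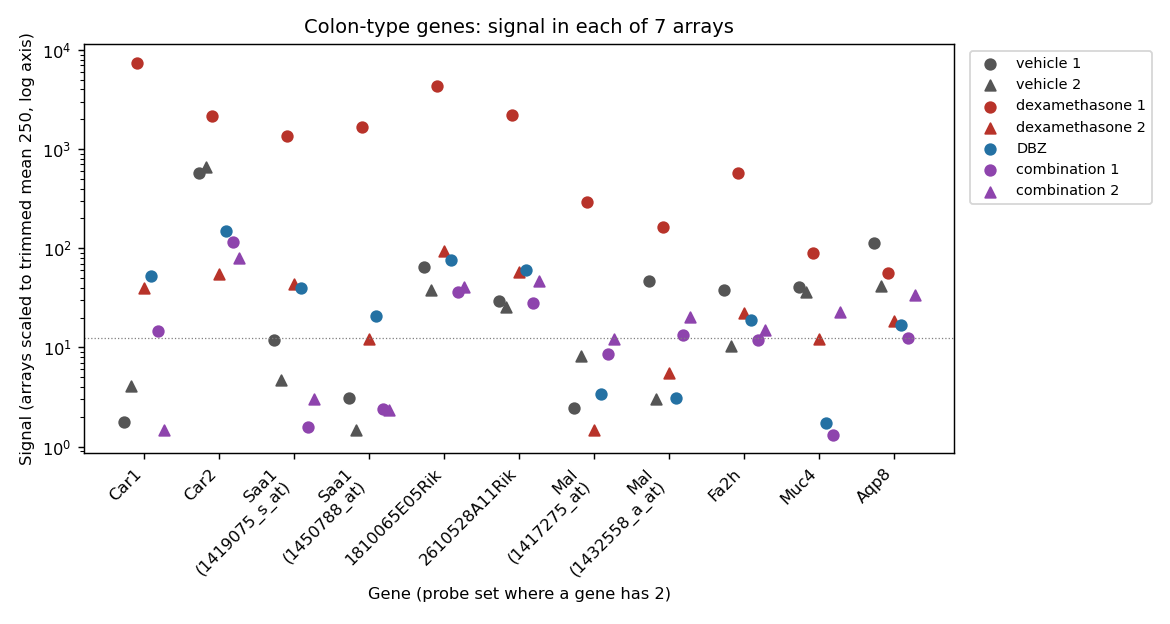
Signal of the 11 probe sets of the 9 colon-type genes (x axis) in each of 7 arrays (points; log y axis), after scaling every array to a trimmed mean of 250. The dotted line is the constant of 12.46 added before logarithms. Dexamethasone 1 is the top point for 10 of 11 probe sets, and vehicle 1 is the top point for Aqp8.

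Over the set, 10 of the 11 probe sets, from 8 of the 9 genes, were highest in dexamethasone 1, and all 11 were higher there than in dexamethasone 2. At least a 2-fold margin over every other array was reached by 9 probe sets of 7 genes, against 0.865% of the 8093 genes with 1 probe set each above the filter. Since this array chose the genes, nothing is read from that share. Of the 11 probe sets, 9 passed the filter over 7 arrays, and 3 passed when the dexamethasone arrays were left out. The summed signal of the 9 genes was 869 and 822 with vehicle, 18821 in dexamethasone 1, 313 in dexamethasone 2, 398 in the DBZ array, and 232 and 254 in the combination arrays.

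The comparisons made without the dexamethasone arrays use the vehicle, DBZ and combination arrays alone. They are not free of the choice of genes, which was made with earlier results of these data known. They set DBZ alone, and DBZ with dexamethasone, against vehicle, and the second of these changes both drugs at once. Car2 fell in both. Its signal was 577 and 657 with vehicle against 148 with DBZ, a log2 change of -1.97 ± 0.28 (SE, 1 DBZ array against 2, limma adjusted p = 0.00430), and against 117 and 80.1 with the combination, a change of -2.52 ± 0.23 (SE, n = 2 per group, limma adjusted p = 0.000495). The groups did not overlap. Without DBZ, Car2 read 55.3 in dexamethasone 2 and 2138 in dexamethasone 1, so its low level was not confined to arrays with DBZ. Between the combination and DBZ alone the change of Car2 was -0.55, with a 95% interval of 0.63 on either side (limma adjusted p = 0.50), so a difference of that size was not resolved.

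Aqp8 and 1810065E05Rik, the other members with enough signal in those 5 arrays, did not pass the test. Aqp8 reached the filter only through vehicle 1, at 112, and without that array it was not tested. For Aqp8 the log2 change was -1.50 ± 0.58 with DBZ (limma adjusted p = 0.143) and -1.28 ± 0.47 with the combination (limma adjusted p = 0.139), and 1 vehicle array lay well above the other. For 1810065E05Rik it was 0.51 ± 0.40 with DBZ (limma adjusted p = 0.474) and -0.29 ± 0.33 with the combination (limma adjusted p = 0.634). Against DBZ alone, the combination differed by 0.22 ± 0.58 in Aqp8 (limma adjusted p = 0.922) and by -0.80 ± 0.40 in 1810065E05Rik (limma adjusted p = 0.497).

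In counts, 1 of the 3 tested members was called with DBZ, against 7.31% of 13578 probe sets, and 1 of 3 with the combination, against 7.02%. Between the combination and DBZ limma called 0 of 3, against 0.302% of all probe sets. At an unadjusted p under 0.05 the count was also 0 of 3, against 1561 of all 13578 probe sets. The other 6 genes did not reach the filter in these arrays and were not tested. The spread of the single DBZ array was taken to be that of the other groups, and nothing in the labels beyond the replicate numbers says how the mice were kept or the RNA prepared, so the p-values measure only the spread between these arrays. When the dexamethasone arrays were included in the estimate of the spread, the calls of Car2 ended (limma adjusted p = 0.404 with DBZ and 0.212 with the combination). When vehicle 2 was left out, the changes of Aqp8 were -2.10 with DBZ and -1.88 with the combination, set against vehicle 1 alone.

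**Figure D3:**
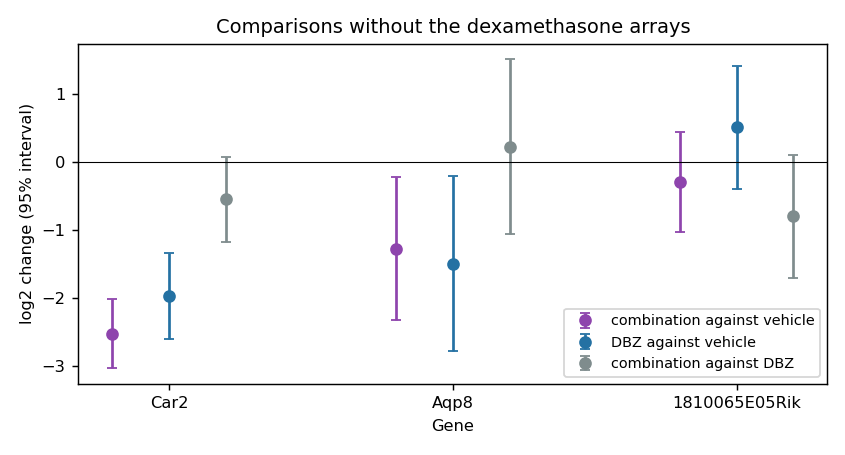
Log2 change (y axis) of the 3 colon-type genes above the filter in the arrays without dexamethasone alone, for each of 3 comparisons (colours), with 95% intervals from limma. Car2 lies below 0 for DBZ and for the combination against vehicle, at -1.97 and -2.52, and the intervals of 1810065E05Rik span 0.

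Some markers of gut position moved with these comparisons, and others stayed within the vehicle range. Fabp6, which binds bile acids in ileal cells, was near the floor with vehicle at 0.644 and 1.22 and reached 11961 with DBZ, and 1198 and 1125 in the combination arrays. Of the proximal genes, Reg1, named after its values were seen, went from 7238 and 8147 with vehicle to 96.2 with DBZ, and to 96.8 and 73.0 in the combination arrays. The carotene-cleaving enzyme gene Bco1 of the same list went from 39.9 and 37.9 with vehicle to 326 with DBZ, and to 576 and 300.2 in the combination arrays. Over the lists, the 10 ileal genes with a probe set summed to 7904 and 10180 with vehicle, 33005 with DBZ, and 15578 and 20535 in the combination arrays. The 19 proximal genes summed to 70539 and 77560 with vehicle, 50886 with DBZ, and 53126 and 62510 in the combination arrays. Fabp6 alone gave 11961 of the ileal sum with DBZ, and Reg1 gave 7238 and 8147 of the proximal sums with vehicle. Proximal Lct read 7175 and 8244 with vehicle, 7704 with DBZ, and 7360 and 7691 with the combination. Ileal Slc13a1 read 1414 and 3308 with vehicle, 2959 with DBZ, and 2113 and 2555 with the combination. The part of position along the gut in the fall of Car2 was not tested, and the labels give no segment. In whole tissue, fewer cells of a type and less RNA per cell cannot be told apart.

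The proximal genes summed to 37112 in dexamethasone 1 and 39240 in dexamethasone 2, and Reg1 read 101 and 55.0. The ileal genes summed to 18278 in dexamethasone 1 and 28580 in dexamethasone 2, and Fabp6 read 3339 and 10075. Of the 9 ileal genes above the filter, 7 were lower in dexamethasone 1 than in dexamethasone 2. None of the 9 ileal genes above the filter was highest in dexamethasone 1.

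The same array was then examined in 50 other genes of colonic epithelium, of which 39 had a probe set and 22 passed the filter. In dexamethasone 1, 13 of the 22 had their highest signal, or 59.1%, against 19.0% of all 8093 genes, and 6 were at least 2-fold above every other array, against 0.865%. Some genes, such as Slc6a14 and Sycn, passed the filter only through dexamethasone 1, and 20 passed it without that array. The share among the 22 is given as a description. The median log2 difference between dexamethasone 1 and dexamethasone 2 was 0.74 in the list and 0.021 over all genes, and 15 of the 22 were higher in dexamethasone 1 and 7 lower. With no filter, 23 of 39 were highest there and 9 were at least 2-fold above the rest, of which 3 lay under the filter, against 16.9% and 0.742% of all 12393 named genes. Not all of the list followed. The summed signal of the 39 genes was 54967 in dexamethasone 1 and 55693 in combination 2, between 39529 and 49267 in the others, and genes such as the goblet cell lectin Zg16 and the mucin Muc3 were highest in combination 2.

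By gap, the amino acid transporter Slc6a14 led with 648 in dexamethasone 1 and between 0.929 and 18.1 in the other arrays. Retnlb, an antimicrobial protein of goblet cells, read 125 in dexamethasone 1 and between 1.65 and 8.48 elsewhere, under the filter on average. Cyp2c55, a cytochrome P450 of colonic epithelium, read 2818 and 1029 with vehicle, 6324 in dexamethasone 1, 150 in dexamethasone 2, 362 in the DBZ array, and 140 and 117 in the combination arrays. Cyp2c55 therefore had the order of Car2: highest in dexamethasone 1, next in both vehicle arrays, and lower in all other treated arrays.

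Among the transport genes, Aqp4, a water channel, read 318 in dexamethasone 1, 137 and 81.7 with vehicle, and between 17.6 and 49.2 in the other arrays. Hsd11b2, the enzyme that inactivates corticosterone in aldosterone target cells, read 375 in dexamethasone 1 and between 55.2 and 127 elsewhere. Car12, a membrane carbonic anhydrase, read 218 in dexamethasone 1 and between 35.4 and 94.6 elsewhere. These 3 genes passed the filter. Cd177 at 82.4, the hormone Insl5 at 39.4 and the claudin Cldn8 at 27.6 were also highest in dexamethasone 1, but their means lay under the filter. The 6 posterior Hox genes of the list, which mark the distal bowel, lay between 0.822 and 38.3 in every array, and none passed the filter.

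In dexamethasone against vehicle, fitted with all 7 arrays, 5 of the 22 tested genes of this colon list rose and 0 fell. Of all 13637 probe sets, limma called 12% in either direction. The list was made with earlier results known, and Slc6a14 and Sycn entered the 22 only through dexamethasone 1, so the share is a description. Of the 5 genes, Saa3, Car12 and Hsd11b2 were at least 2-fold above every other array in dexamethasone 1, so their p-values draw on that array. Slc5a8, the sodium-coupled monocarboxylate transporter that takes up short-chain fatty acids, read 21.8 and 16.6 with vehicle against 436 and 536, a rise of 3.98 ± 0.22 on the log2 scale (SE, n = 2 per group, limma adjusted p = 2.35e-05). Mptx1, a pentraxin of the gut, rose by 1.96 ± 0.30 (limma adjusted p = 0.00397), and Saa3 by 2.97 ± 0.53 (limma adjusted p = 0.00720). Car12 rose by 1.51 ± 0.38 (limma adjusted p = 0.0314) and Hsd11b2 by 1.58 ± 0.40 (limma adjusted p = 0.0331). Slc5a8 also read 718 in the DBZ array and 364 and 490 in the combination arrays, so it was low with vehicle alone, as Fabp6 was. Mptx1 did not share this split, at 53.4 with DBZ and 28.6 and 36.9 in the combination arrays. The part of position along the gut in the changes of colon genes against vehicle, here and below, was not tested.

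Leaving out dexamethasone 1 changed which genes were called. Then 594 of 13560 probe sets (4.38%) were called in all, and 5 of 20 tested colon genes, 3 higher and 2 lower. Slc5a8 (4.12 ± 0.28, limma adjusted p = 0.000127), Mptx1 (2.23 ± 0.38, limma adjusted p = 0.0107) and Saa3 (1.91 ± 0.33, limma adjusted p = 0.0113) were called with and without it. The calls of Car12 and Hsd11b2 ended, with limma adjusted p = 0.225 and 0.195. Cyp2c55, which had a change of -0.76 ± 1.25 with both arrays (limma adjusted p = 0.756), fell by 3.40 ± 0.46 on the log2 scale without dexamethasone 1 (limma adjusted p = 0.00416) and changed by 1.88 in the other direction without dexamethasone 2 (limma adjusted p = 0.0374). The chloride and bicarbonate exchanger Slc26a3 had -0.81 ± 0.24 with both arrays (limma adjusted p = 0.0523) and -1.20 ± 0.22 without dexamethasone 1 (limma adjusted p = 0.0153). Leaving out other single arrays ended more of these calls: Saa3 without vehicle 2 (limma adjusted p = 0.0583), Car12 without either vehicle array or combination 2 (limma adjusted p from 0.0507 to 0.141), and Hsd11b2 without either vehicle or either combination array (limma adjusted p from 0.0613 to 0.140). Hsd11b2 missed the threshold in 9 of 16 alternatives and Car12 in 6 of 15, among them no filter (limma adjusted p = 0.0750 and 0.0746). Each array left alone in its group in these fits takes its spread from the remaining groups. Slc5a8 and Mptx1 passed under all 16 and 15 alternatives that gave them a value.

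**Figure D4:**
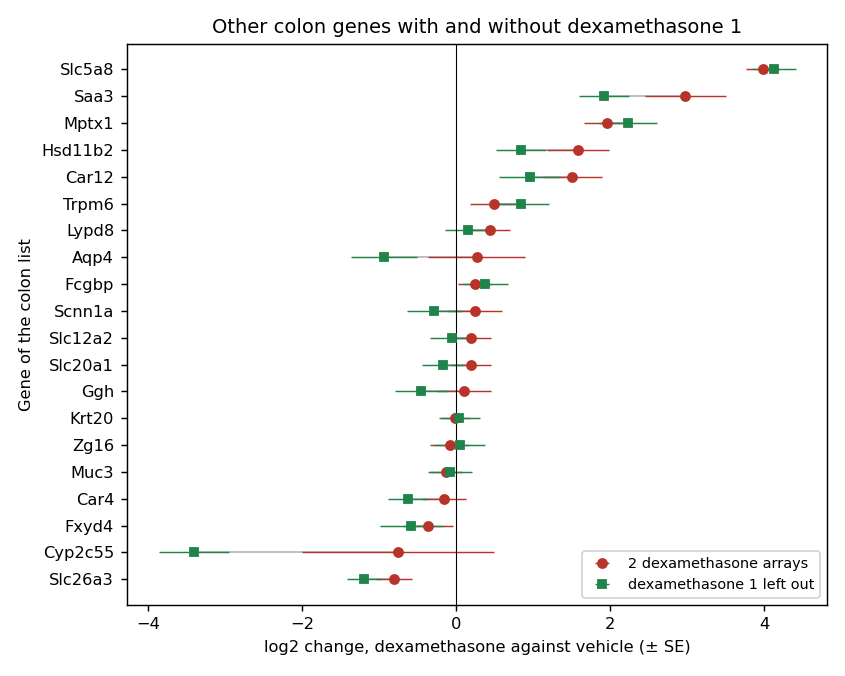
Log2 change in dexamethasone against vehicle (x axis, with SE bars) of genes of the colon list (y axis), with both dexamethasone arrays (circles) and with dexamethasone 1 left out (squares). Cyp2c55 moves from -0.76 to -3.40, while Slc5a8 stays near 4.

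In the arrays without dexamethasone alone, 3 of 21 tested colon genes were called with DBZ and 7 of 21 with the combination, beside the 7.31% and 7.02% given above. Slc5a8 rose in both, by 4.53 ± 0.29 with DBZ (limma adjusted p = 9.22e-05) and by 3.78 ± 0.24 with the combination (limma adjusted p = 5.97e-05). Cyp2c55 fell in both, with changes of -2.20 ± 0.46 (limma adjusted p = 0.0221) and -3.61 ± 0.37 (limma adjusted p = 0.000883), but it did not pass with all 7 arrays in the fit (limma adjusted p = 0.393 and 0.110). Slc26a3 fell in both too, with -1.67 ± 0.22 (limma adjusted p = 0.00341) and -1.26 ± 0.18 (limma adjusted p = 0.00369). With the combination, Saa3 rose by 1.39 ± 0.28 (limma adjusted p = 0.0172), while Aqp4, the membrane carbonic anhydrase Car4 and the phosphate transporter Slc20a1 fell. Aqp4 changed by -1.72 ± 0.35 (limma adjusted p = 0.0189), Car4 by -0.95 ± 0.21 (limma adjusted p = 0.0280) and Slc20a1 by -0.86 ± 0.22 (limma adjusted p = 0.0466). Those last 4 calls depended on the setting and on single arrays. With no filter none of them passed (limma adjusted p from 0.0732 to 0.106), nor did any with all 7 arrays in the fit (0.0750 to 0.143). Without the intensity trend Car4 and Slc20a1 missed the threshold (0.0800 and 0.103), as did Slc20a1 after quantile normalisation (0.0569). Saa3 lost its call without combination 2 (limma adjusted p = 0.0805), Aqp4 without vehicle 1 (0.0549), Car4 without vehicle 2 or combination 1 (0.0714 and 0.125), and Slc20a1 without vehicle 2 or either combination array (0.108 to 0.173). Slc20a1 had -0.97 ± 0.27 with DBZ, which did not pass (limma adjusted p = 0.0595).

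The combination against DBZ gave 0 of 21 colon genes past the limma threshold, and 5 at an unadjusted p under 0.05, beside 1561 of all 13578 probe sets. Those with the smallest p were Ly6g6c (1.49 ± 0.41, limma adjusted p = 0.199), Saa3 (1.06 ± 0.34, limma adjusted p = 0.264), Cyp2c55 (-1.42 ± 0.46, limma adjusted p = 0.269) and Slc5a8 (-0.75 ± 0.29, limma adjusted p = 0.362). Cyp2c55 passed there when either vehicle array was left out (limma adjusted p = 0.00708 and 0.0102). Ly6g6c reached the filter only through the combination arrays, at 74.6 and 58.5, against 15.5 with DBZ and 25.7 and 24.5 with vehicle. The comparisons against vehicle share the vehicle arrays, and their values stand side by side for that reason only.

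Other tissues that use the same genes were examined through their markers. Car1 and Car2 are also carbonic anhydrases of red blood cells. Over the 7 red cell markers with a probe set, of which 0 passed the filter, the summed signal was 53.8 in dexamethasone 1 and between 97.8 and 167 in the others. These signals are too low to order the arrays. The 13 markers of stratified squamous epithelium with a probe set summed to 417 in dexamethasone 1 and between 378 and 521 in the others, and the 8 of stomach to 263 against 174 to 366.

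The 10 smooth muscle markers summed to 28008 in dexamethasone 1, above 20002 in dexamethasone 2, 23798 with DBZ, 18595 and 20160 with the combination, and 8710 and 12272 with vehicle. All 9 that passed the filter were higher in dexamethasone 1 than in dexamethasone 2, with a median log2 difference of 0.69. Acta2 read 5567 against 4594, Tagln 4545 against 3475, and Cnn1 3023 against 1346. The 9 fibroblast markers summed to 9509 in dexamethasone 1 and between 3247 and 9003 in the others. The part of muscle and connective tissue in the high values of the 9 colon-type genes was not tested.

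The 16 genes of inflamed epithelium and the acute phase with a probe set summed to 13282 in dexamethasone 1, 4530 in dexamethasone 2, 11330 with DBZ, 5896 and 2100 with vehicle, and 1515 and 1837 with the combination. Of them, 5 passed the filter, all higher in dexamethasone 1 than in dexamethasone 2, with a median log2 difference of 1.55. The antibacterial lectin Reg3g read 4768 in dexamethasone 1 and 3741 with DBZ, and Reg3b 6863 and 7073. Lcn2, an iron-scavenging protein of stressed epithelium, read 195 in dexamethasone 1 and between 1.37 and 58.3 elsewhere. It passed the filter only through dexamethasone 1. The neutrophil genes S100a8 and S100a9 stayed between 1.17 and 18.4 and the cytokine genes Il6 and Cxcl1 between 0.416 and 14.7, all under the filter. Tnf, also under the filter on average, was highest in dexamethasone 1, at 43.1 against 2.24 to 25.2. Ccl20 and Il1b were highest in vehicle 2, at 72.1 and 56.6, and Cxcl2 in vehicle 1, at 26.7. The part of the genes of this list in the level of Saa1 was not tested.

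**Figure D5:**
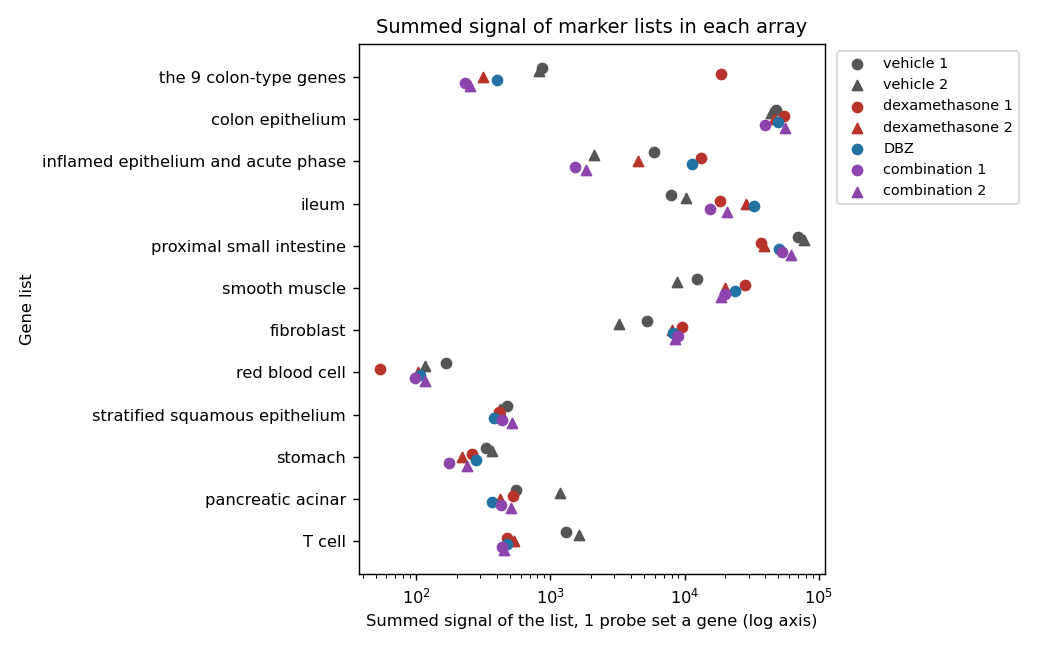
Summed signal (log x axis), 1 probe set a gene, of each marker list (y axis) in each of 7 arrays (points). The 9 colon-type genes sum to 18821 in dexamethasone 1 and to at most 869 elsewhere, and red blood cell markers to at most 167 in every array.

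The genes whose pattern over the 7 arrays was most like the set were found by Pearson correlation with the mean standardised profile of the 9 genes. That profile is carried by dexamethasone 1, so r measures mostly how far a gene stands out there, and it is given as a description of 7 arrays. The 12 most alike were Slc2a1, Prom1, Cbr3, Myo19, Plet1, Pdzk1ip1, Tsc2, Slc6a14, Vdac3, Pfkl, Selenbp1 and Rxylt1, with r from 0.99 down to 0.954. Slc2a1, a glucose transporter, read 714 in dexamethasone 1 and between 90.2 and 131 in the others. Prom1, an apical membrane protein of progenitor cells, read 2473 against 275 to 711, and the carbonyl reductase Cbr3 310 against 28.8 to 70.7. Selenbp1, a selenium-binding protein of mature epithelium, read 3488 in dexamethasone 1 and between 432 and 561 in the others. The ratio of dexamethasone 1 to the next highest array ran from 1.31 for Tsc2 to 44.1 for Slc6a14. Within the set, r with the shared profile was highest for Fa2h, at 0.979, and lowest for Aqp8, at 0.520.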

How the data were processed

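The authors deposited MAS5 signal intensities per probe set, per the labels and the submitters' processing notes. No MAS5 version is given in the sources used, and the table has no detection calls. The deposited columns had trimmed means of 500 in the vehicle arrays and 250 in the others, and medians between 61.0 and 140, so arrays were brought to one trimmed mean, 250, over non-control probe sets, with 2% trimmed at each end. Scale and direction of the values are thus known, and no centring was found. Values were taken as log2(signal + 12.46), where the constant is the 20th percentile of all scaled signals. The filter kept probe sets whose mean over the arrays of a fit reached 39.1, the 40th percentile, and dropped 64 controls.

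Gene names came from the platform annotation, in which 20393 probe sets had 1 symbol, 691 several and 1606 none. In lists, a gene is represented by the probe set of highest mean. Fits used limma 3.58.1 in R 4.3.3 with the prior variance following intensity. The 2-sided p-values were adjusted by Benjamini and Hochberg across every tested probe set, with 0.05 as the threshold. The planned design had 2 DBZ arrays, but the columns held 1, so residual degrees of freedom were 2 without the dexamethasone arrays and 3 with them. The number of arrays limits the precision. The procedure was run on simulated data with known changes. Those data gave all probe sets the same spread and held no outlying array. They cannot show how the tests behave with an array such as dexamethasone 1. Values after ± are SE.

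The genes, lists and tests were chosen with earlier results of these data known, so no list is independent evidence. Genes were named by rule: all probe sets of the 9 genes, the 10 colon genes with the largest gaps and the 4 with the smallest p in each comparison, up to 4 of each other list by mean signal, the 12 nearest profiles and family relatives. Named beyond that rule after their values were seen were further colon genes that passed a test, Reg1, Bco1, Mog, Mag, Ugt8a, S100b, S100a8, S100a9, Lcn2, Il6, Cxcl1, Cnn1, Sycn, Zg16 and Muc3. So were Tnf, Ccl20, Il1b and Cxcl2. Alternatives tried were the unscaled deposited intensities, quantile normalisation, changed pseudocounts, changed filters, no intensity trend, other arrays in the fit, a replicate block, and leaving out single arrays.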

Additional observations from a re-analysis of the deposited data

How the results depend on the processing

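Left as deposited, where the vehicle arrays carry a doubled scale, the median of all probe sets shifted by -0.86, -0.84 and -0.80 on the log2 scale in the combination, DBZ and dexamethasone against vehicle, and calls turned almost wholly downward. Then 11106 probe sets were called for the combination (122 higher and 10984 lower, against 546 and 407 after scaling), 9344 for DBZ (120 and 9224, against 463 and 530), 10403 for dexamethasone (196 and 10207, against 976 and 658) and 6 for the combination against DBZ. Colon genes called became 18, 14 and 13, and colon-type genes called became 3 with the combination and 2 with DBZ. With no filter, 351, 302, 2 and 1080 probe sets were called for the combination, DBZ, the combination against DBZ, and dexamethasone, with 3 colon genes each for the combination and dexamethasone. Without the intensity trend, 532, 537 and 1 were called in the first 3 of these. Quantile normalisation left 5 in the combination against DBZ. With all arrays in the fit, 0 colon-type genes were called in either comparison with vehicle, and 2 colon genes with the combination.

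A replicate block raised colon genes called from 3 to 5 with DBZ, from 0 to 1 in the combination against DBZ, and probe sets called there from 41 to 180. The numbers are not taken as pairs, since differences between replicates correlated at -0.122, 0.0488 and 0.115 over probe sets between vehicle and combination, vehicle and dexamethasone, and dexamethasone and combination.

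Leaving out 1 array at a time, colon-type genes called ranged from 1 to 2 with the combination and with DBZ, and stayed at 0 between them. Colon genes called ranged from 5 to 8, 3 to 6 and 0 to 1 in those comparisons and 2 to 7 with dexamethasone. Probe sets called ranged from 618 to 1238, 1206 to 1367, 69 to 251 and 594 to 1619. Fits with fewer arrays also gain or lose tested probe sets and degrees of freedom. The change of 1810065E05Rik turned to 0.012 for the combination without vehicle 1 and to -0.33 for DBZ as deposited, and that of Aqp8 to -0.22 for the combination against DBZ without combination 2. Without vehicle 2 the first was -0.60, and without combination 1 the last was 0.66. The change of Cyp2c55 with dexamethasone ranged from -3.40 without dexamethasone 1 to 1.88 without dexamethasone 2. The cause was not tested. Of the single genes and gaps, 392 values under an alternative kept their direction and their side of the threshold, or moved by less than 1 SD where no test was made, while 41 lost the threshold, 16 gained it, 8 moved further and 4 reversed. Cyp2c55 lost its call with DBZ with no filter (limma adjusted p = 0.0874), without the intensity trend (0.0621) and with all arrays in the fit (0.393), and with the combination in that last fit (0.110). Car2 fell past the threshold under all alternatives but the fit with all arrays. The table has no detection calls, which limits all low signals.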

Other observations

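Of the 105 probe sets at least 2-fold above every other array in dexamethasone 1, 97 belonged to other genes or had no single name. A few were singled out after their values were seen. Klk1, a tissue kallikrein that releases kinins, had 2 probe sets that read 8709 and 9086 in dexamethasone 1, 1291 and 1410 in dexamethasone 2, and between 320 and 861 in the other arrays. Sptssb, a subunit of the enzyme that starts sphingolipid synthesis, read 783 in dexamethasone 1 and between 17.7 and 52.7 elsewhere with 1 probe set, and 480 against 1.25 to 47.7 with the other. The stress-response gene Nupr1 read 1906 and 1339 with its probe sets, against at most 364 and 240. Slc40a1, the iron exporter ferroportin, read 522 in dexamethasone 1 and between 39.8 and 141 in the others, although it stood on the list of proximal genes. These are single-array values with no test.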
